A study of Homo sapiens with 2 samples.

Results

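The phase II conjugation enzymes were taken as the genes named as UDP-glucuronosyltransferases (UGT), cytosolic sulfotransferases (SULT), glutathione S-transferases (GST) or microsomal glutathione S-transferases (MGST) in the deposited table. Of its 61541 genes, 55 had such a name, and 54 were kept: 22 UGT, 13 SULT, 16 GST and 3 MGST genes. GSTT2 was set aside because its description calls it a gene or pseudogene. The rule uses names and descriptions and no measured value. Of the 54 genes, 43 had reads in at least 1 library, 37 had at least 10 reads over both libraries, and 11 had none in either.

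Conjugation enzymes attach a polar group to drugs, hormones, bilirubin and other small molecules, which can then be exported into bile or urine. UGT enzymes sit in the endoplasmic reticulum and transfer glucuronic acid from UDP-glucuronate. SULT enzymes transfer sulfate from PAPS in the cytosol, and GST enzymes couple reactive electrophiles to glutathione. The liver is a main site of all these reactions.

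The RNA came from Huh7, an established line of human hepatocellular carcinoma (HCC) cells. The study asked what the loss of BRF2, a TFIIIB component that RNA polymerase III needs at some of its promoters, does to the transcriptome of these cells. Huh7-NC cells received a negative control siRNA and Huh7-si cells received siRNA against BRF2, with 1 library per condition (the control and the knockdown library below). The labels give neither the siRNA sequence used nor the time after transfection, and both libraries share the 1 cell line.

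Total estimated counts, called reads here, were 22852648 in the control library and 22089016 in the knockdown. The targeted gene BRF2 had 1281 reads in the control library and 364 in the knockdown. Its log2 fold change was -1.77 (95% interval -1.94 to -1.60, exact binomial), which is 70.6% lower in CPM, which divides each count by its library's depth. All 14 hepatocyte markers examined had reads, and albumin (ALB) stood at 3957 TPM (a level scaled to gene length and depth) in the control library and 4077 TPM in the knockdown. Summed over the 14, their level was 17896 and 18092 TPM, whereas by reads, under the rule given next, 11 of the 14 were lower and 2 higher, with APOA1 at -0.83, RBP4 at -0.60 and APOB called higher at 1.04 on the log2 scale. Of 7 blood cell markers, leukocyte genes and the erythroid gene HBB, 5 had reads. CD3E and HBB were at 0 and PTPRC was at 5 and 1 reads. LYZ, at 438 and 433 TPM, made up most of the markers' sum of 445 and 439 TPM, and ITGAM was called higher at 24 and 59 reads. A further 5 endothelial markers summed to 1.16 and 1.83 TPM. Of 7 stellate cell or fibroblast markers 6 had reads and 3 (50%) were called higher in the knockdown, against 10.4% of all genes with reads. These 3 were COL1A1, COL1A2 and COL3A1, at 1.21, 0.83 and 0.85 relative to the median of genes of like length. All 7 markers summed to 16.4 and 34.6 TPM. Their part in the results below was not tested. In bulk RNA, fewer cells with a transcript and less transcript per cell cannot be told apart.

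With 1 library per condition there is no spread between replicates, so each test compares these libraries and not the conditions, and each interval covers counting error alone. A gene is called here when its CPM differed at least 2-fold and its two-sided exact binomial p was under 0.05. With 0 reads in 1 library, a gene counts as past the fold. Genes are written as higher or lower when that p was under 0.05 at any fold. Reads were scaled by library total, and the median log2 fold change over all 17921 genes with at least 10 reads was then 0.21. TMM scaling, which assumes that most genes did not change, moved every log2 fold change by -0.22 and brought that median to -0.02.

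Several members share sequence, which bears on how reads were divided among them. In the UGT1A locus on chromosome 2, each gene has its own first exon, and all join it to the same second exon at chr2:233767034-233767165 (GRCh38, plus strand, GENCODE 29). The junctions of the 6 UGT1A genes with reads are shown because in this window only the lower-case bases, the last 30 of the gene's own first exon, can tell the transcripts apart. The capitals mark the first 30 bases of the shared second exon.
UGT1A1: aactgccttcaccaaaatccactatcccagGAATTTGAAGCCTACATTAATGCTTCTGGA
UGT1A3: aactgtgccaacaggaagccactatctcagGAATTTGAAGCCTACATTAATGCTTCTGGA
UGT1A4: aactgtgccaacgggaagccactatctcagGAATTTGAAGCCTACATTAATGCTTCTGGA
UGT1A6: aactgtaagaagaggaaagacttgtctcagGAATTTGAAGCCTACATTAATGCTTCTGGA
UGT1A8: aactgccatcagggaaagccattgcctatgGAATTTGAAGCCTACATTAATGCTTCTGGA
UGT1A10: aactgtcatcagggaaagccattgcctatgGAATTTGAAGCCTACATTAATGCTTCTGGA

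The coding sequence that these transcripts share with UGT1A1 from the 3′ end is 736 to 738 bases, about 46% of each coding sequence (46.24% in UGT1A6). A read from the shared exons alone cannot be placed in 1 UGT1A gene.

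The SULT1A3 and SULT1A4 genes carry the same longest coding sequence, with 0 mismatches over 903 bases. The first 60 bases are shown because nothing in them, or in the rest of the coding sequence, separates the genes.
SULT1A3: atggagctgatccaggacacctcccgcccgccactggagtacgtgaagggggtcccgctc
SULT1A4: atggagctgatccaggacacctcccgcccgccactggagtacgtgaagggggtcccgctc

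GSTA1 and GSTA2 can be told apart, although 96.7% of their 666 coding bases are the same, with 22 mismatches. Coding bases 314 to 373 are shown as the stretch that separates them, with the 7 mismatched bases in capitals.
GSTA1: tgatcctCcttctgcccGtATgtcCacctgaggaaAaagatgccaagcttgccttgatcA
GSTA2: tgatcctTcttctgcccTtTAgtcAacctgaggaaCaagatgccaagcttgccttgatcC

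Identity was 96.84% between SULT1A1 and SULT1A2, with 28 mismatches, and 96.54% between UGT2B15 and UGT2B17, with 55 mismatches. Values of such genes are therefore also given summed, some over whole subfamilies such as UGT2B, GSTA and GSTM.

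In level, the GST family outweighed the others. On the TPM scale, which is per length, its summed level was 6218 TPM in the control library and 4914 TPM in the knockdown. The MGST genes came to 788 and 617 TPM, the SULT genes to 138 and 126 TPM, and the UGT genes to 53.7 and 85.7 TPM. GSTP1 alone, the pi class enzyme, held 78.0% of the members' TPM in the control library and 76.5% in the knockdown. In Huh7-NC, 5 members were over 100 TPM (GSTP1, MGST1, GSTO1, MGST2 and GSTK1), and 14 were between 10 and 100 TPM. A further 10 were between 1 and 10 TPM, 12 were below 1 TPM, and 13 were listed at 0.

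**Figure D1:**
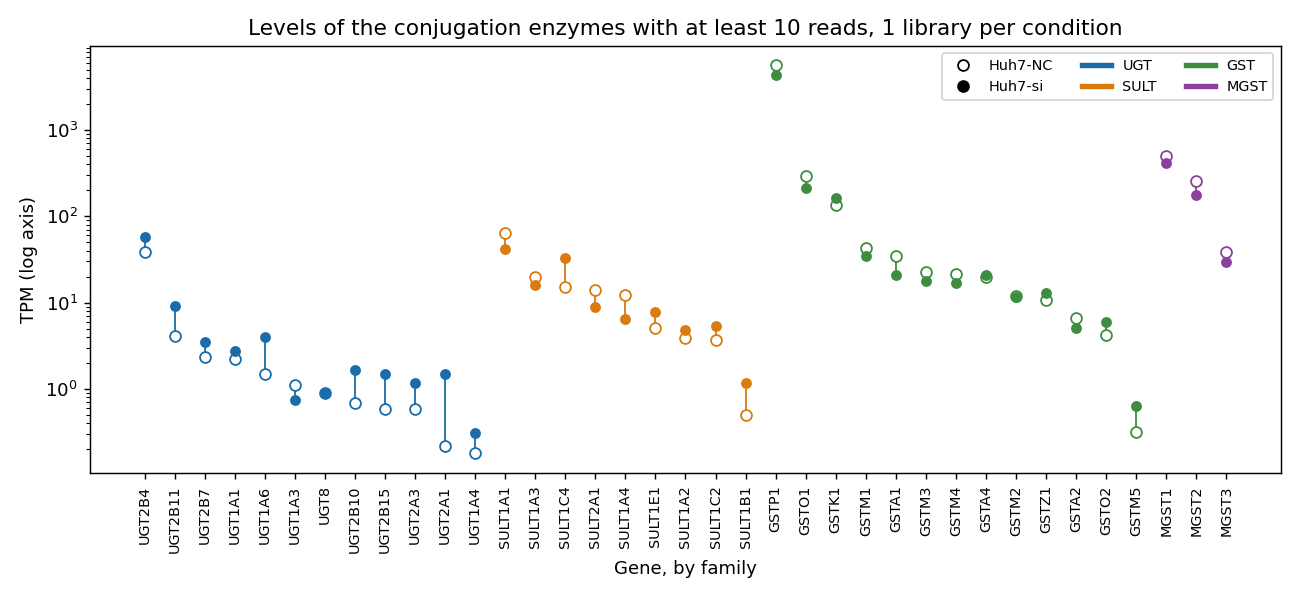
TPM (log axis) of the 37 conjugation enzymes with at least 10 reads over both libraries, by family. Open circles are Huh7-NC and filled circles are Huh7-si, 1 library each; GSTP1 lies at 5615 and 4392 TPM, above all others.

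The 11 genes without a read in either library were GSTA3, GSTA5, GSTT4, SULT1C3, SULT4A1, SULT6B1, UGT1A5, UGT1A7, UGT1A9, UGT2B28 and UGT3A2. A count of 0 allows up to 0.131 CPM in the control library and 0.136 CPM in the knockdown (3 reads).

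Between the libraries, the families moved in different directions. Of the 43 genes with reads, 6 (14%) were called higher in Huh7-si, where 10.4% of all 26379 genes with reads were, and 1 (2.33%) was called lower, where 1.02% of all genes were. The 6 were SULT1B1, SULT1C2, UGT1A6, UGT1A8, UGT2A1 and UGT2B15, and the 1 was SULT1A4. At any fold, 13 were higher and 15 lower, or 30.2% and 34.9%, against 30% and 13.9% of all genes. The higher share was thus near that of all genes and the lower share above it. The test reaches p under 0.05 at a small fold only with many reads. At least 10 reads over both libraries were held by 37 of the 43 members and by 17921 of the 26379 genes. Depth was not matched in this comparison. The members' median log2 fold change was 0.04, below the 0.21 of all genes. With TMM scaling, 2 were called higher (6.91% of all genes) and 4 lower (2.17%), while 9 were higher and 18 lower at any fold (19.7% and 22.6% of all genes). Over all genes that scaling turned 2742 higher and 270 lower calls into 1822 and 572.

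By family, 8 of 17 UGT genes with reads were higher and 1 lower, with a median of 0.67. Of 10 SULT genes, 4 were higher and 4 lower, and the median was 0.13. Of 13 GST genes, 1 was higher and 7 were lower, with a median of -0.43, and all 3 MGST genes were lower, with a median of -0.58. With TMM scaling the medians became 0.45 for UGT, -0.09 for SULT, -0.65 for GST and -0.80 for MGST. Then 5 UGT genes were higher and 1 lower, 4 SULT genes were higher and 5 lower, 9 GST genes were lower and 0 higher, and the 3 MGST genes remained lower.

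**Figure D2:**
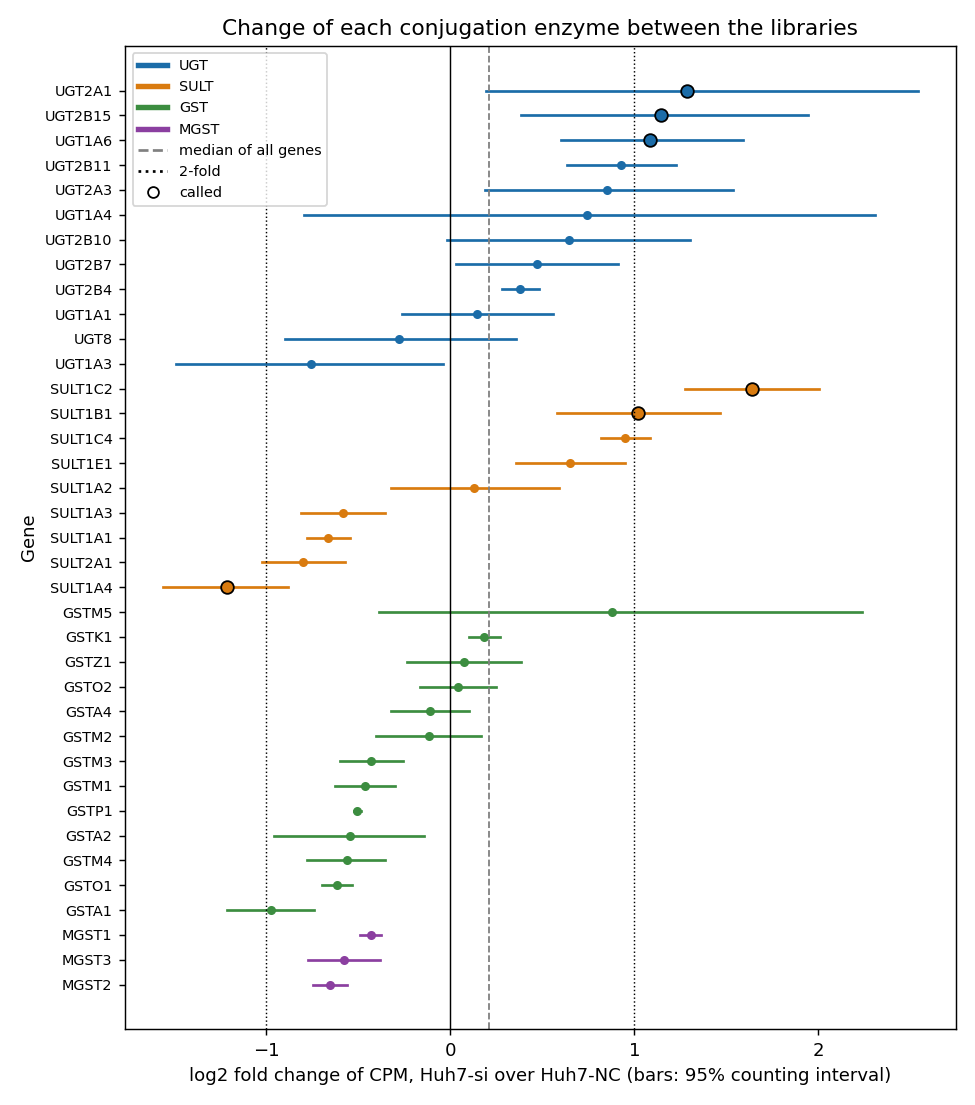
Log2 fold change of CPM, Huh7-si over Huh7-NC, for the 37 genes with at least 10 reads, with 95% counting intervals, ordered within families; dashed and dotted lines mark the median of all genes (0.21) and a 2-fold difference. Most UGT genes lie to the right of 0 and all 3 MGST genes to the left, and outlined circles are the called genes.

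Among the UGT genes, UGT2B4, a hepatic enzyme that glucuronidates bile acids, had the highest level. It had 1410 reads and 39.1 TPM in the control library and 1774 reads and 58.0 TPM in the knockdown, a log2 fold change of 0.38 (0.28 to 0.48). UGT2B11 had 150 reads in the control library and 276 in the knockdown, a log2 fold change of 0.93 (0.64 to 1.23). UGT2B4 was thus higher by a small step and UGT2B11 by nearly the fold needed for a call. UGT2B7, which glucuronidates morphine and many other drugs, had 77.0 and 103 reads (log2 fold change 0.47, 0.03 to 0.91). UGT2B15, an androgen-conjugating enzyme, was called higher, with 22 reads in the control library and 47.0 in the knockdown (1.14, 0.38 to 1.95), but was under 2-fold with TMM scaling (0.92). Its near copy UGT2B17 had 1 and 0 reads, so few reads were at stake between them.

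Summed over the UGT2B genes, reads were 1694 in the control library and 2252 in the knockdown. The log2 fold change was 0.46 (0.37 to 0.55), higher but under 2-fold. UGT2B4 made up 83.2% of these reads in the control library and 78.8% in the knockdown. The UGT2A and UGT2B genes lie side by side at chr4:68537184-69653249 (GRCh38).

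UGT2A1, best known from the olfactory epithelium, had 10 reads in the control library and 23.6 in the knockdown and was called higher (log2 fold change 1.29, 0.19 to 2.54), a call that ended with TMM scaling (1.06). UGT2A2, which shares its downstream exons with UGT2A1, had 0 and 4.38 reads (exact binomial p = 0.0584). UGT2A3 had 31.0 and 54.0 reads (0.85, 0.19 to 1.54). UGT2A1 and UGT2A2 together had 10 and 28 reads, and the sum was called higher at 1.53 (0.45 to 2.74). These low counts leave wide intervals.

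Within the UGT1A locus (chr2:233617645-233773310), single genes moved apart while the sum moved little. UGT1A6, an enzyme for small phenols, was called higher, with 53.0 reads and 1.49 TPM in the control library and 109 reads and 3.95 TPM in the knockdown (log2 fold change 1.09, 0.60 to 1.59), but was under 2-fold with TMM scaling (0.86). UGT1A1, the bilirubin-conjugating enzyme, had 99.1 and 106 reads (0.14, -0.26 to 0.56). UGT1A3 had 47.5 and 27.2 reads (-0.75, -1.49 to -0.04). The intervals of UGT1A6 and UGT1A3 do not overlap, and that of UGT1A1 includes 0.

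UGT1A8, an enzyme of the gut, had 0 reads in the control library and 5.71 in the knockdown, and was called higher (exact binomial p = 0.0141). Its 0.2585 CPM in the knockdown is 1.97 times the 0.131 CPM that a count of 0 allows in the control library. This is under 2-fold, so its call rests on the rule that a count of 0 passes the fold. The ratio leaves out the counting error of the 5.71 reads, and the 95% interval of its log2 fold change began at 0.28. UGT1A4 had 7.02 and 11.3 reads and UGT1A10 3.94 and 5.4 reads, and neither differed by the test. Reads of the locus summed to 211 in the control library and 264 in the knockdown, a log2 fold change of 0.38 (0.11 to 0.64), which was not called. How the shared exons were divided among the UGT1A genes is not given in the sources used here, and fractional counts such as 5.71 are estimates.

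UGT8, the galactosyltransferase of myelin lipid synthesis, had 51.1 and 40.8 reads (-0.28, -0.90 to 0.36). UGT3A1 had 3 and 2 reads.

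In the SULT family, the SULT1C genes were higher and the SULT1A genes mostly lower. SULT1C4, a fetal form, had 683 reads and 15.2 TPM in the control library and 1277 reads and 33.3 TPM in the knockdown. Its log2 fold change was 0.95 (0.82 to 1.09), just under 2-fold. SULT1C2 was called higher by reads, with 84.5 in the control library and 255 in the knockdown (1.64, 1.27 to 2.01). Both SULT1C genes were thus higher, and their sum, 768 and 1532 reads, was called at 1.05 (0.92 to 1.17), under 2-fold with TMM scaling (0.82).

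On the TPM scale SULT1C2 moved less, from 3.73 to 5.32 TPM, a log2 difference of 0.51. How TPM was computed is not given in the sources used here. If it divides by the length of the transcripts to which reads were assigned, a gap between the scales implies a length shift. A log2 fold change by reads that exceeds that by TPM, relative to the median of all genes, would then mean a longer length in Huh7-si. For SULT1C2 this implied length shift was 1.31 on the log2 scale. From 5% to 95% of 13396 genes lay between -0.32 and 0.35. A change of length was not tested. UGT2A1 had a shift of the opposite sign, -1.28, from 0.22 to 1.48 TPM, a log2 difference of 2.75. Of the 37 genes with at least 10 reads, direction differed between reads and TPM for 1, GSTA4.

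**Figure D3:**
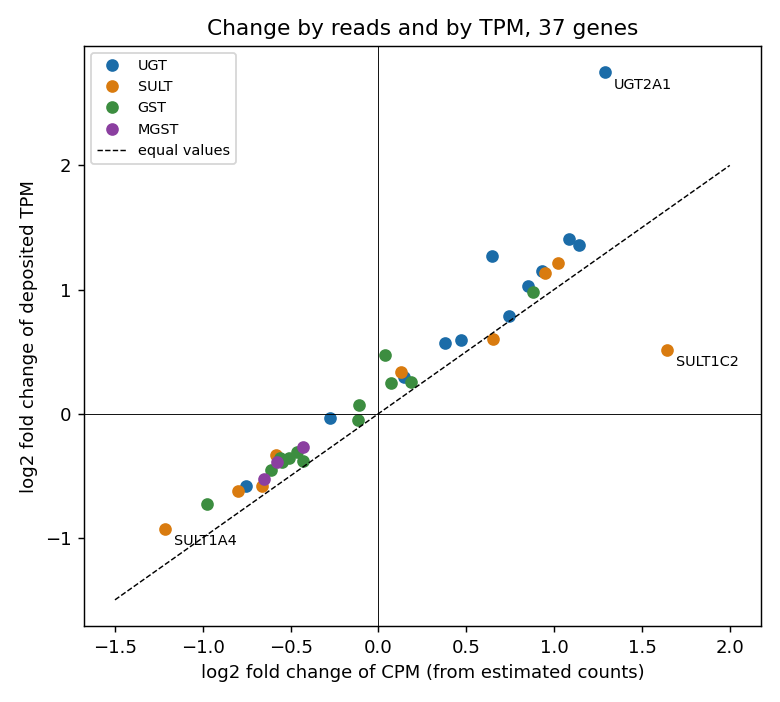
Log2 fold change of deposited TPM against log2 fold change of CPM from estimated counts for the 37 genes with at least 10 reads; each point is a gene and the dashed line marks equal values. SULT1C2 lies far below the line (0.51 by TPM, 1.64 by reads) and UGT2A1 far above it (2.75 and 1.29).

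SULT1B1, which sulfates thyroid hormones, had 66.7 reads in the control library and 131 in the knockdown and was called higher (1.02, 0.58 to 1.46), a call that TMM scaling (0.80) ended, as did a comparison with genes of its length bin (0.48). SULT1E1, the estrogen sulfotransferase, had 160 and 243 reads (0.65, 0.36 to 0.95). SULT1B1 and SULT1E1 are neighbours at chr4:69721162-69860152 and were both higher.

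SULT2A1, the hydroxysteroid sulfotransferase that makes DHEA sulfate, had 451 reads and 13.9 TPM in the control library and 251 reads and 9.02 TPM in the knockdown (-0.80, -1.02 to -0.57). It was lower, and with TMM scaling it was called, at -1.02. SULT2B1, the cholesterol sulfotransferase, had 5 and 0 reads (exact binomial p = 0.0627).

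SULT1A1, the main phenol sulfotransferase of liver, had 1608 reads and 63.6 TPM in the control library and 983 reads and 42.4 TPM in the knockdown, a log2 fold change of -0.66 (-0.78 to -0.55). SULT1A2 had 81.3 and 86.0 reads (0.13, -0.32 to 0.59). Their sum was lower at -0.61 (-0.72 to -0.50). SULT1A1 carried 95.2% of the summed reads in Huh7-NC, so the sum followed it.

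SULT1A3 and SULT1A4 encode the catecholamine sulfotransferase. SULT1A3 had 407 reads in the control library and 263 in the knockdown, and SULT1A4 had 250 and 104. The log2 fold changes were -0.58 (-0.81 to -0.35) for SULT1A3 and -1.21 (-1.56 to -0.88) for SULT1A4, the 1 member called lower. Since their coding sequences are the same, their reads were also summed, 657 in the control library and 367 in the knockdown, -0.79 (-0.98 to -0.60), lower but not called.

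Readthrough genes overlap both. SLX1A-SULT1A3 had 422 reads in the control library and 1113 in the knockdown (log2 fold change 1.45), and SLX1B-SULT1A4 had 319 and 414 (0.43). Their annotated transcripts hold the last 293 to 312 bases of the SULT1A3 coding sequence as 1 unbroken run. Coding sequence shared upstream of that run was not measured. With these genes added, the sum turned from lower to higher, 1398 to 1894 reads, 0.49 (0.39 to 0.59). How the counting divided reads between these genes was not tested.

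**Figure D4:**
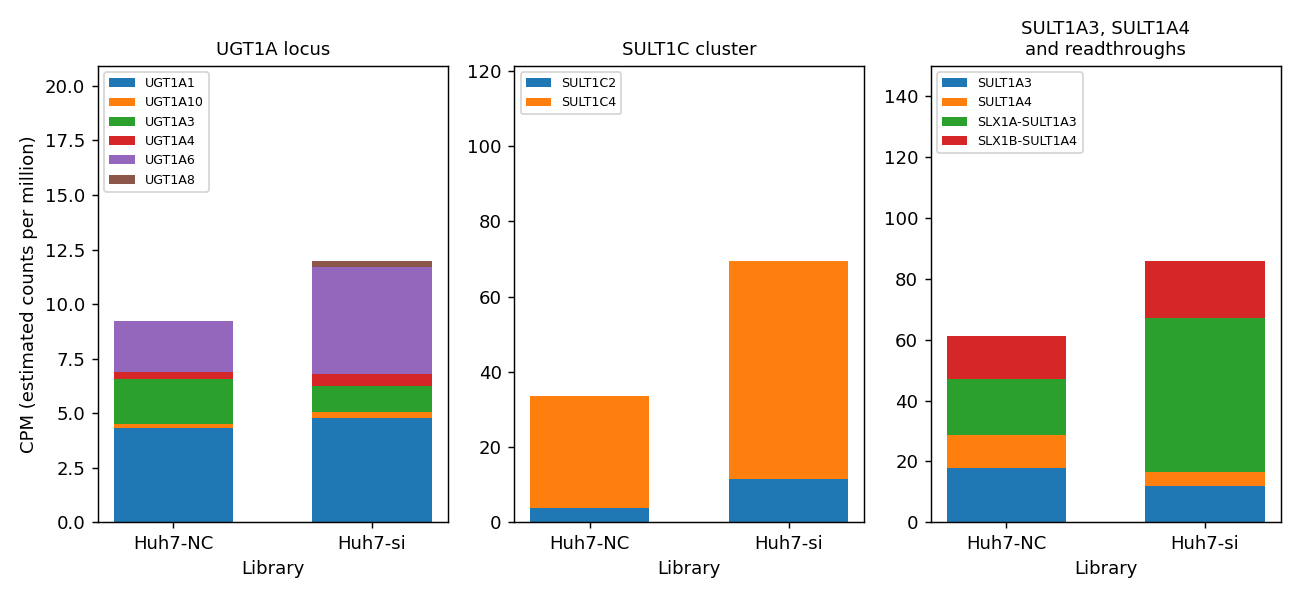
CPM in each library, stacked by gene, for the UGT1A locus, the SULT1C cluster, and SULT1A3 and SULT1A4 with their readthrough genes (linear axes from 0, each panel with its own scale). SULT1A3 and SULT1A4 shrink in Huh7-si while the stack with SLX1A-SULT1A3 grows from 1398 to 1894 reads.

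Among the cytosolic GST genes, GSTP1 had 54104 reads and 5615 TPM in the control library and 36816 reads and 4392 TPM in the knockdown. Its log2 fold change was -0.51 (-0.53 to -0.49). In each library it had more reads than all other members together. GSTO1, an omega class thioltransferase, had 3248 and 2051 reads (-0.61, -0.69 to -0.53). GSTO2, the other omega gene, had 397 and 395 reads (0.04, -0.16 to 0.25). The omega genes thus parted by reads, but not relative to the median of genes of like length. On that measure GSTO1 stood at -0.44 and GSTO2 at -0.50.

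GSTA1, the main alpha class enzyme of hepatocytes, had 456 reads and 35.0 TPM in the control library and 224 reads and 21.1 TPM in the knockdown. The log2 fold change was -0.98 (-1.21 to -0.74), just short of a call, and it was called with TMM scaling at -1.20. GSTA2 had 130 and 85.8 reads (-0.55, -0.96 to -0.14). GSTA4, which acts on lipid peroxidation products, had 383 and 343 reads (-0.11, -0.32 to 0.10). The whole GSTA cluster (chr6:52750089-52995378) had 969 and 653 reads, a log2 fold change of -0.52 (-0.67 to -0.38).

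In the GSTM cluster (chr1:109656081-109775428), GSTM1 had 763 and 535 reads (-0.46, -0.63 to -0.30), GSTM3 had 661 and 475 (-0.43, -0.60 to -0.26), and GSTM4 had 465 and 304 (-0.56, -0.78 to -0.35). GSTM2, at 218 and 194 reads (-0.12, -0.41 to 0.17), did not differ by the test, nor did GSTM5 at 9 and 16 reads. The cluster summed to 2116 and 1524 reads, -0.42 (-0.52 to -0.33). GSTM1 overlaps GSTM2 in the annotation, and GSTM3 overlaps GSTM5 on the opposite strand. Strandedness of the counting is not given in the sources used here.

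GSTK1, the kappa class enzyme of mitochondria and peroxisomes, was the 1 GST gene that was higher, with 2211 reads in the control library and 2428 in the knockdown (0.18, 0.10 to 0.27), but its value was -0.04 with TMM scaling. GSTZ1, the maleylacetoacetate isomerase of tyrosine breakdown, had 174 and 177 reads (0.07, -0.24 to 0.38).

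The MGST genes encode membrane enzymes unrelated in fold to the cytosolic GST. MGST1 had 6194 and 4437 reads (-0.43, -0.49 to -0.38). MGST2, which can also make leukotriene C4, had 2469 and 1518 reads (-0.65, -0.75 to -0.56). MGST3 had 552 and 358 reads (-0.58, -0.77 to -0.38). All were lower by less than 2-fold.

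Gene length moved with these values. Over the 37 members with at least 10 reads, length and log2 fold change had a Spearman's rho of 0.50, and over all 17921 such genes it was 0.31; both are across genes, which share the same libraries, and are given as descriptions. Median lengths were 901 bases for MGST, 1218 for GST, 1578 for SULT and 2404 for UGT genes. Relative to the median of genes of like length (20 length bins), the family medians were 0.54 for UGT, 0.27 for SULT, -0.33 for GST and -0.40 for MGST, and the members' median was -0.02. Of the GST and MGST genes, 13 of 16 lay below genes of like length, and of the UGT genes 10 of 12 lay above.

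**Figure D5:**
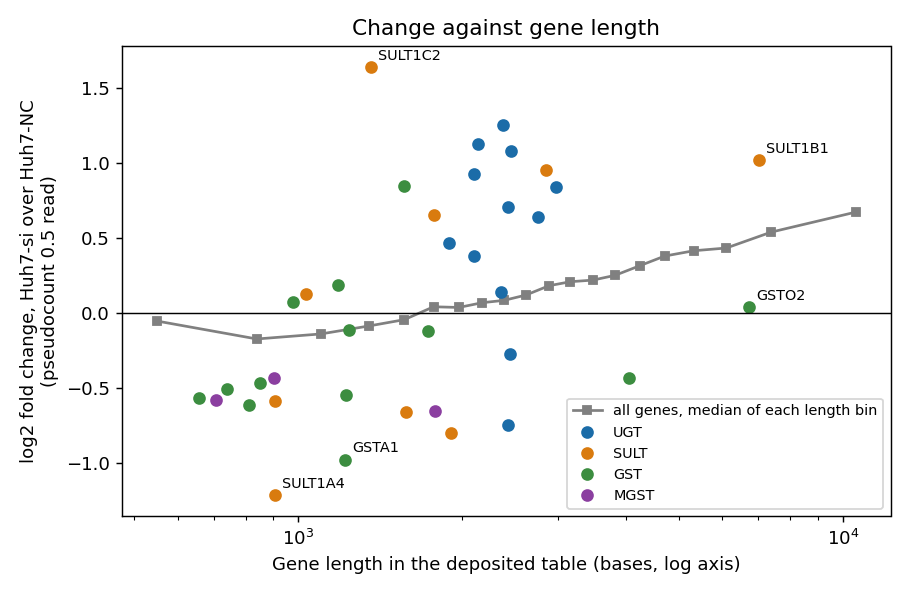
Log2 fold change (pseudocount 0.5 read) against gene length in the deposited table (log axis) for the 37 members, coloured by family, with the medians of 20 length bins of all genes as the grey line. UGT genes lie mostly above the line and GST and MGST genes mostly below it; SULT1B1, one of the longest members, stands 0.48 above it.

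Promoters were searched for TGACNNNGC, the core of the antioxidant response element to which NRF2 binds, on both strands. RefSeq windows (GRCh38.p14) from 250 bases before to 50 after the start were at hand for 46 members, and 11 of them (23.9%) held it, against 13.3% of all 35116 windows. These were GSTA4, GSTM1, GSTM5, GSTO1, GSTP1, MGST1, SULT1C2, UGT1A5, UGT1A6, UGT2B10 and UGT2B11. A member counted once if any window of its own held the core, while the share of all is over single windows, so the shares differ in unit. In MGST1 the match lay after the start. The matches of GSTM1 and GSTM5 lay in similar sequence, as did those of UGT2B10 and UGT2B11. GSTP1, GSTM1 and GSTO1 from the lower side and UGT1A6 from the higher side are shown with the match in capitals, 60 bases each, because a match occurred among genes of either direction.
GSTP1 (chr11:67583720-67583779, plus strand): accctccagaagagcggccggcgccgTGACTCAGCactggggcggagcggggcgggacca
GSTM1 (chr1:109687626-109687685, plus strand): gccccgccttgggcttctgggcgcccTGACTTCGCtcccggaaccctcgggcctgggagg
GSTO1 (chr10:104254642-104254701, plus strand): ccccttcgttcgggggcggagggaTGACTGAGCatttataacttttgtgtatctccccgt
UGT1A6 (chr2:233692766-233692825, plus strand): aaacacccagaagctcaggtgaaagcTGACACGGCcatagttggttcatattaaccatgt

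The matches shown begin 66 bases before the start in GSTP1, 165 in GSTM1, 226 in GSTO1 and 98 in UGT1A6. GSTO1 also held a match that begins 161 bases before the start and is not shown. A match is a run of letters and not a bound site.

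Genes that feed and serve the conjugation reactions were listed apart from the members. Of the 4 genes for UDP-glucuronate supply, 0 were higher and 2 were lower, UGP2 at -0.12 and SLC35D1, a carrier into the endoplasmic reticulum, at -0.55 (1293 and 856 reads). UGDH, the enzyme that makes UDP-glucuronate, did not differ by the test, with 3951 and 3834 reads (0.01, -0.06 to 0.07). Of 7 genes for PAPS supply, 1 was higher and 1 lower. Among 16 genes of glutathione supply and recycling, 7 were higher and 5 lower, and the subunits of glutamate-cysteine ligase parted, GCLC at 0.31 and GCLM at -0.29. None of these 3 lists held a called gene. With TMM scaling all 4 genes of UDP-glucuronate supply were lower, PAPS supply had 1 higher and 3 lower, and glutathione supply 5 higher and 7 lower.

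Exporters of conjugates were mostly higher, 7 of 9, with 1 lower and a median of 0.81 (0.38 relative to genes of like length), where 30% of all genes were higher. ABCC2, the canalicular exporter of glucuronides and glutathione conjugates, had 1549 reads in the control library and 3427 in the knockdown and was called (1.19, 1.11 to 1.28). ABCC3, its basolateral counterpart, had 358 and 923 reads and was called (1.42, 1.24 to 1.60). These calls are 22.2% of the list, against 10.4% of all genes; with TMM scaling ABCC3 remained called (1.19), ABCC2 was under 2-fold (0.97), and 7 were higher and 2 lower. A list of hydrolases that remove conjugates also held SUMF1 and SUMF2, which are sulfatase-modifying factors and not hydrolases. Of its 7 genes with reads, 4 were higher, SUMF2 (0.28) among them, and 0 were lower. The list had 0 called genes, and the beta-glucuronidase gene GUSB stood at 0.32 (0.22 to 0.41). With TMM scaling, 0 were higher and 1 was lower, SUMF1 (-0.20).

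Of 18 regulators of these genes, 8 were higher and 7 lower, and 2 (11.1%) were called higher, near the 10.4% of all genes. AHR, the aryl hydrocarbon receptor, had 735 and 1505 reads (1.08, 0.95 to 1.21), and MAFK, a small MAF partner of NRF2, had 950 and 1887 reads (1.04, 0.93 to 1.15). Both were under 2-fold with TMM scaling, at 0.86 and 0.81, which left 4 regulators higher, 8 lower and 0 called. NFE2L2, which encodes NRF2, had 6223 and 5215 reads (-0.21), and its repressor KEAP1 had 4521 and 3460 (-0.34). The receptors NR1I2 (PXR) and NR1I3 (CAR) had 107 and 133 reads and 33.9 and 31.5 reads, and neither differed by the test.

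Among 15 other conjugating and detoxifying genes with reads, 2 were higher and 6 lower (0 and 7 with TMM scaling). Of these, 1 (6.67%) was called lower, against 1.02% of all genes. With TMM scaling 2 were called lower, where 2.17% of all genes were. NQO2 (925 and 518 reads, -0.79) was called only with TMM scaling, at -1.01. NQO1, the quinone reductase, had 16846 and 9917 reads (-0.72, -0.75 to -0.68). AS3MT, the arsenite methyltransferase, was called lower with 79.3 reads in the control library and 0 in the knockdown, while a readthrough gene that overlaps it, BORCS7-ASMT, had 505 and 434 reads. Of 10 other genes of the MAPEG and GST folds, 1 was higher and 2 lower (0 and 5 with TMM scaling). None was called, but with TMM scaling 1 was called lower, PTGES (19 and 8 reads, -1.42).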

How the data were processed

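RNA-seq of Huh7-NC and Huh7-si was analyzed, 1 library each. The authors deposited 1 table with each gene's estimated count and TPM in either library. The authors left the counts unscaled for depth, and gene length is in bases. The submitters' processing notes list Bowtie2 2.0.6, TopHat2 2.0.12 and GRCh37; the counting tool, annotation and strandedness are not given in the sources used here. The table holds fractional counts and 2 member identifiers that GENCODE 29 lacks, so the build and annotation behind its counts are uncertain. The authors' columns of fold change, p-value, adjusted p-value and direction were not used.

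Estimated counts were rounded to whole numbers for two-sided exact binomial tests (SciPy 1.17.1) over the 26379 genes with reads, given 95% Clopper-Pearson intervals, and scaled by library total. Calls needed a 2-fold CPM ratio and an unadjusted p under 0.05. A gene at 0 in 1 library counted as past the fold. Members with at least 100 reads over both libraries, and called members, are named with their values. Medians used a pseudocount of 0.5 reads over genes with at least 10 reads. The scripts were tested on simulated data. Scalings of edgeR 4.0.16 and DESeq2 1.42.0 were alternatives, as were filters, thresholds and TPM. The members and lists were chosen with earlier results of these data known. Of the 54 members, 52 were matched to GENCODE 29 (GRCh38) by identifier and 2 (UGT1A3, UGT1A5) by symbol; the table gives no coordinates. Promoters came from RefSeq.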

Additional observations from a re-analysis of the deposited data

How the results depend on the processing

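The 6 members called higher became 2 with edgeR TMM scaling and 3 with DESeq2 median-of-ratios or upper-quartile scaling, and the 1 called lower became 4, 4 and 3. Of all genes with reads, 6.91%, 7.1% and 7.32% were then called higher and 2.17%, 2.05% and 1.72% lower. The members' median log2 fold change of 0.04 became -0.18, -0.17 and -0.15, while that of all genes became -0.02, 0.00 and 0.02. Of the 6, SULT1C2 and UGT1A8 remained called higher under all 3 scalings, while SULT1B1, UGT1A6 and UGT2B15 did not under any of them. UGT1A8, at 0 reads in the control library, passes the fold under any scaling, so only its p could change. A minimum of 10 reads over both libraries, or of 1 CPM in either, left it out and gave 5 higher. SULT2B1, at 5 and 0 reads, passes the fold in the same way and was among those called lower under the 3 scalings. Taking fold from the TPM columns without a test gave 11 higher and 2 lower (32.8% and 9.27% of all genes) and a median of 0.25 (0.39 over all genes). A 1.5-fold threshold gave 10 and 7 (17.6% and 2.87% of all genes). With a biological coefficient of variation of 0.4 assumed, edgeR's exact test called 0 higher and 0 lower (2.6% and 0.288% of all genes). Its unadjusted p was under 0.05 for 0 members at any fold. Counting each summed group once gave 3 higher, 0 lower and a median of -0.27. These groups merge whole subfamilies such as UGT2B, GSTA, GSTM and SULT1C, and not near-identical genes alone. A minimum of 1 CPM in either library, or leaving out the UGT1A locus (chosen after seeing the data), each moved the median to -0.11. Benjamini-Hochberg adjustment over all genes with reads kept 6 and 1 (8.82% and 0.739% of all genes). BRF2 stayed lower throughout, from -1.59 to -1.99.

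The SULT family median turned to -0.0946, -0.0770 and -0.0564 under the 3 scalings. Single genes whose sign turned under the same 3 were GSTK1 (-0.0408, -0.0231 and -0.00256), GSTO2 (-0.185, -0.167 and -0.146, and -0.499 relative to genes of like length), GSTZ1 (-0.151, -0.133 and -0.113), SULT1A2 (-0.0942, -0.0765 and -0.0559) and UGT1A1 (-0.0817, -0.0641 and -0.0435). GSTA4 turned to 0.0716 by TPM, and SULT1A3 with SULT1A4 to 0.49 with their readthrough genes, an alternative added after seeing the data. The cause was not tested. Among 31 members followed singly under 6 alternatives, 145 of 186 values kept their direction and side of the call. The 3 scalings among these shift every gene by a like amount (-0.225, -0.207 and -0.186), so they are not separate checks. The test with an assumed coefficient of variation is not in this tally. No paired analysis was possible because each condition has 1 library. Depth limits the members under 100 reads most; no replicate shows how far cultures of 1 condition differ.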
